A study of Mus musculus with 8 samples.

Results

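The cathepsins and cystatins described here are 10 of the 27923 genes in the tables of unique molecular identifiers (UMIs). They comprise the cysteine cathepsins Ctsb, Ctsc, Ctsh, Ctsk, Ctsl, Ctss and Ctsz, the aspartic protease Ctsd, and the protease inhibitors Cst3 (cystatin C) and Cstb (cystatin B). All 10 were found by symbol in each of the 8 tables, and their UMIs were summed per library and per class of cells. The classes were gated on marker genes that include none of the 10. The members held 74030 of the 9666493 UMIs in the barcodes kept, or 0.766%.

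The study labelled living cells by light in lung tumors of KP mice, sorted them and sequenced single cells on Seq-Well arrays, to ask how cells at the Healthy/Tumor Border differ from those of the Whole Tumor. The groups are the border of Tumor 1 (1 library), the Whole Tumor of Tumor 1 (3 arrays), the border of Tumor 2 (1 library) and the Whole Tumor of Tumor 2 (3 arrays). Both mice were chimeras made from C57BL/6 embryonic stem cells of the KP model, with p53 fl/fl among its alleles. Tumors were started with an adenovirus that expresses Cre from the SPC promoter of alveolar type II cells. Border and whole samples share these alleles and this virus. They differ in light, since near-UV light was shone on the border regions and the Whole Tumor samples were not photoactivated. Region and light exposure therefore cannot be told apart. All slices were stained with the photocaged dye calcein NVOC. By the study's methods cells were gated for the viability dye calcein violet, and border cells also for uncaged calcein NVOC. A separate gate for Whole Tumor cells is not spelled out there. The sort on uncaged dye also cannot be told apart from region. The mice were adult when tumors were started and were a male and a female, per the study's methods. Each tumor came from 1 mouse and the arrays of a tumor are technical replicates, so mouse, sex and tumor cannot be told apart and every p-value below measures the spread between arrays.

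Cathepsins are proteases made as inactive precursors and activated in the acid interior of endosomes and lysosomes, where they digest proteins taken up or turned over by the cell. Macrophages are rich in them, and in antigen-presenting cells cathepsin S trims the invariant chain so that class II molecules can be loaded. Cystatins bind the active site of cysteine cathepsins, cystatin C mostly outside the cell and cystatin B in the cytosol. They do not inhibit the aspartic cathepsin D.

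In GENCODE M21 gene models of GRCm38, the build mm10 of the deposited tables, the members lie on 7 chromosomes. Ctsk (chr3:95499256-95509362, plus strand) and Ctss (chr3:95526786-95556403, plus strand) are neighbours, separated by 17423 bases. Cst3 (chr2:148871722-148875692) and Ctsz (chr2:174427493-174439039) share a chromosome on the minus strand, as do Ctsc (chr7:88278085-88310888, plus strand) and Ctsd (chr7:142375911-142388038, minus strand). Ctsh (chr9:90054152-90076089, plus), Cstb (chr10:78425669-78427622, plus), Ctsl (chr13:64359337-64370890, minus) and Ctsb (chr14:63122462-63145923, plus) stand alone. Ctsb overlaps Fdft1, Ctsz overlaps Nelfcd and Ctsc overlaps Gm26522, each on the opposite strand. Whether reads were counted by strand is not given in the sources used here, so reads of these pairs may not be separated. Ctsd overlaps the gene model Gm49369 on its own strand, and Ctsl overlaps the antisense model Gm47123 on the opposite strand. Ctsl and Ctss also overlap pseudogenes. None of these models is a row of the tables.

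Promoter sequence from RefSeq (GRCm38.p6, 250 bases before to 50 bases after each start) was matched for 7 of the 10 members. Ctsb, Ctsh and Cstb had no entry. The promoters were searched for CACGTG, which reads the same on both strands and is the core of the element through which TFEB acts on lysosomal genes. It was present in 2 of the 7, Ctsd (2 copies) and Ctsl (1 copy), and in 7.15% of the 32851 promoters in the table, while 0.594% hold 2 or more copies. The 30 bases around each copy are shown because Ctsd and Ctsl were the members with a match, with the motif in capitals and each sequence written along its gene's minus strand, 5′ to 3′. The motif begins 245 and 98 bases before the RefSeq start of Ctsd and 236 bases before that of Ctsl. These starts lie 211 and 370 bases inside the GENCODE models given above, by which the first motif of Ctsd begins 34 bases before the gene and the other motifs lie inside it, 113 bases from the start of Ctsd and 134 from that of Ctsl.
Ctsd, chr7:142388048-142388077: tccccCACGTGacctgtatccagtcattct
Ctsd, chr7:142387908-142387937: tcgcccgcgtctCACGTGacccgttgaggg
Ctsl, chr13:64370739-64370768: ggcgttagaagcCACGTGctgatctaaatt
The longer form TCACGTGA was found in 0.974% of all promoters and 1 time in that of Ctsd. A match describes these letters and no binding was measured.

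Of 4343 deposited barcodes, 3894 held at least 200 genes and were kept. The cell names in all 8 tables carry the number of the other tumor than GEO's labels, which are followed here. By the labels Tumor 1 has 686 border and 1634 Whole Tumor barcodes and Tumor 2 has 534 and 1489. The numbers of cells the study gives for each tumor match the labels and not the cell names. Libraries held 405627 to 2029200 UMIs and 328 to 620 barcodes kept, and Tumor 2 array 2 was the shallowest (median 675.5 UMIs a barcode). A barcode took the class of the list, of 16 lists of 8 markers, with most markers detected and at least 3. This gated 3029 barcodes, 586 of them with exactly 3 markers and 323 leading by 1 marker, and left 865 ungated. A gate is a range rather than a cell type. Neutrophil-like barcodes were the most numerous (1273), and other classes described here were C1q+ macrophage-like (218), Krt+ tumor-like (153), B-like (124) and alveolar macrophage-like (85). Summed markers were well above the level in other gated classes, at 15283 against 386 UMIs per 1000000 (CPM) for the neutrophil-like list and 8892 against 221 CPM for the C1q+ list. Alveolar macrophage-like barcodes came almost only from Tumor 2 (84 of 85), so class and tumor are partly confounded. The border library of Tumor 1 held 291 neutrophil-like and 1 C1q+ barcode, whereas that of Tumor 2 held 82 and 116. The 10 barcode sequences found in more than 1 library (56 columns) fell in no class compared here, and the 36 Mmp12+ barcodes formed no cluster of their own.

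Levels below are the CPM of a class's summed UMIs, with an exact Poisson interval at 95% that covers counting error only, and a gene is compared with itself across classes. Orders cover the classes shown in the plot of levels by class, each with at least 10 barcodes in a tumor. They leave out the ungated and satellite-transcript-rich barcodes and the plasmacytoid dendritic-like class, whose 6 barcodes in the Tumor 2 arrays held 3236 CPM of Ctsl (2621 to 3951) and 977 of Ctsh (655 to 1404). Among the cysteine cathepsins, Ctsb, an abundant endopeptidase and exopeptidase of lysosomes, was highest in C1q+ macrophage-like sums of the Whole Tumor arrays in both tumors, at 3607 (3301 to 3934) in Tumor 1 and 3740 (3528 to 3961) in Tumor 2. Mmp12+ macrophage-like sums followed at 2660 in Tumor 1, above the neutrophil-like sums at 2062. B-like sums were lowest at 223 and 59.2. After every barcode was thinned to 500 UMIs, 63.4% of C1q+, 41.3% of neutrophil-like and 2.5% of B-like barcodes held a Ctsb UMI, against 95.05%, 66.9% and 17.1% unthinned. Both myeloid classes stood well above the B-like class on both scales.

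Ctss, the cathepsin of class II antigen presentation, separated the macrophage-like classes from the neutrophil-like one most widely. It stood at 3466 (3166 to 3787) in C1q+ sums of Tumor 1, and in Tumor 2 at 4629 (4159 to 5138) in Mmp12+, 4431 (4200 to 4672) in C1q+ and 4209 in alveolar macrophage-like sums, whose intervals overlap for the highest pair. Neutrophil-like sums held 112 and 76.2, below B-like sums at 352 and 256. The thinned share of barcodes with a Ctss UMI was 81.1% of alveolar macrophage-like, 72.3% of C1q+, 15% of B-like, 3.53% of neutrophil-like and 2.2% of T or NK-like barcodes. Unthinned, it was 99.0% of C1q+ and 12.8% of neutrophil-like barcodes, so the neutrophil-like share lay below the B-like share and near that of T or NK-like barcodes.

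Ctsl, an endopeptidase of lysosomes, and Ctsc, the dipeptidyl peptidase that activates granule serine proteases, were led by different classes. In Tumor 1 Ctsl stood at 1106 (876 to 1379) in Mmp12+ and 997 (839 to 1176) in C1q+ sums, which overlap, and at 218 in neutrophil-like sums. In Tumor 2 it stood at 1022 (864 to 1199) in monocyte-like sums, above the other classes shown but below the 6 plasmacytoid dendritic-like barcodes. B-like sums held no Ctsl UMI in either tumor. Ctsc was highest in C1q+ sums of Tumor 1 at 764 (627 to 922) and in monocyte-like sums of Tumor 2 at 1179 (1010 to 1369), and each interval overlaps that of the next class. Endothelial-like sums held no Ctsc UMI in 37 barcodes, where 3 counts would stand at 19.8 CPM.

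Ctsh, an aminopeptidase that processes surfactant proteins in alveolar type II cells, was the member that the tumor-like classes led. It stood at 1521 (1210 to 1888) in Sftp+ tumor-like and 516 (460 to 578) in Krt+ tumor-like sums of Tumor 1, above C1q+ (198) and neutrophil-like (83.2) sums. The Sftp+ sum of Tumor 1 held 16 barcodes, and its arrays 1 to 3 stood at 889, 1752 and 727 CPM of Ctsh. Most of its Ctsh UMIs came from array 2 (71 of 82). In Tumor 2 Ctsh was 457 in C1q+ and 417 in Sftp+ sums, which overlap. Ctsz, a carboxypeptidase, held 1344 in Mmp12+, 1287 in C1q+ and 679 in neutrophil-like sums of Tumor 1 and 1075 in alveolar macrophage-like, 978 in C1q+ and 405 in neutrophil-like sums of Tumor 2. The highest pair overlapped in both tumors.

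Ctsd, the main aspartic protease of lysosomes, followed another order. It was highest in alveolar macrophage-like sums of Tumor 2 at 5290 (5053 to 5536). Neutrophil-like sums held 1582 (1517 to 1649) in Tumor 1 and 2138 (2041 to 2238) in Tumor 2, ahead of C1q+ sums at 1231 and 929, while Mmp12+ sums of Tumor 1 overlapped them at 1568 (1291 to 1887). Thinned shares were 86.5% of alveolar macrophage-like, 49.2% of neutrophil-like and 1.25% of B-like barcodes.

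Of the inhibitors, Cst3 was highest in the dendritic-like class. It stood at 10199 (9469 to 10970) in Tumor 1 and 11993 (11391 to 12619) in Tumor 2, next to C1q+ sums at 2412 and 4621 and neutrophil-like sums at 639 and 555. In dendritic-like barcodes 94.9% held a Cst3 UMI after thinning, against 72.3% of C1q+ and 2.5% of B-like barcodes. Cstb had no clear leader. Its highest sums, Mmp12+ at 532 (377 to 730) in Tumor 1 and monocyte-like at 240.0 (167 to 334) in Tumor 2, overlapped the next class, and the neutrophil-like sum of Tumor 1 held 437.

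**Figure D1:**
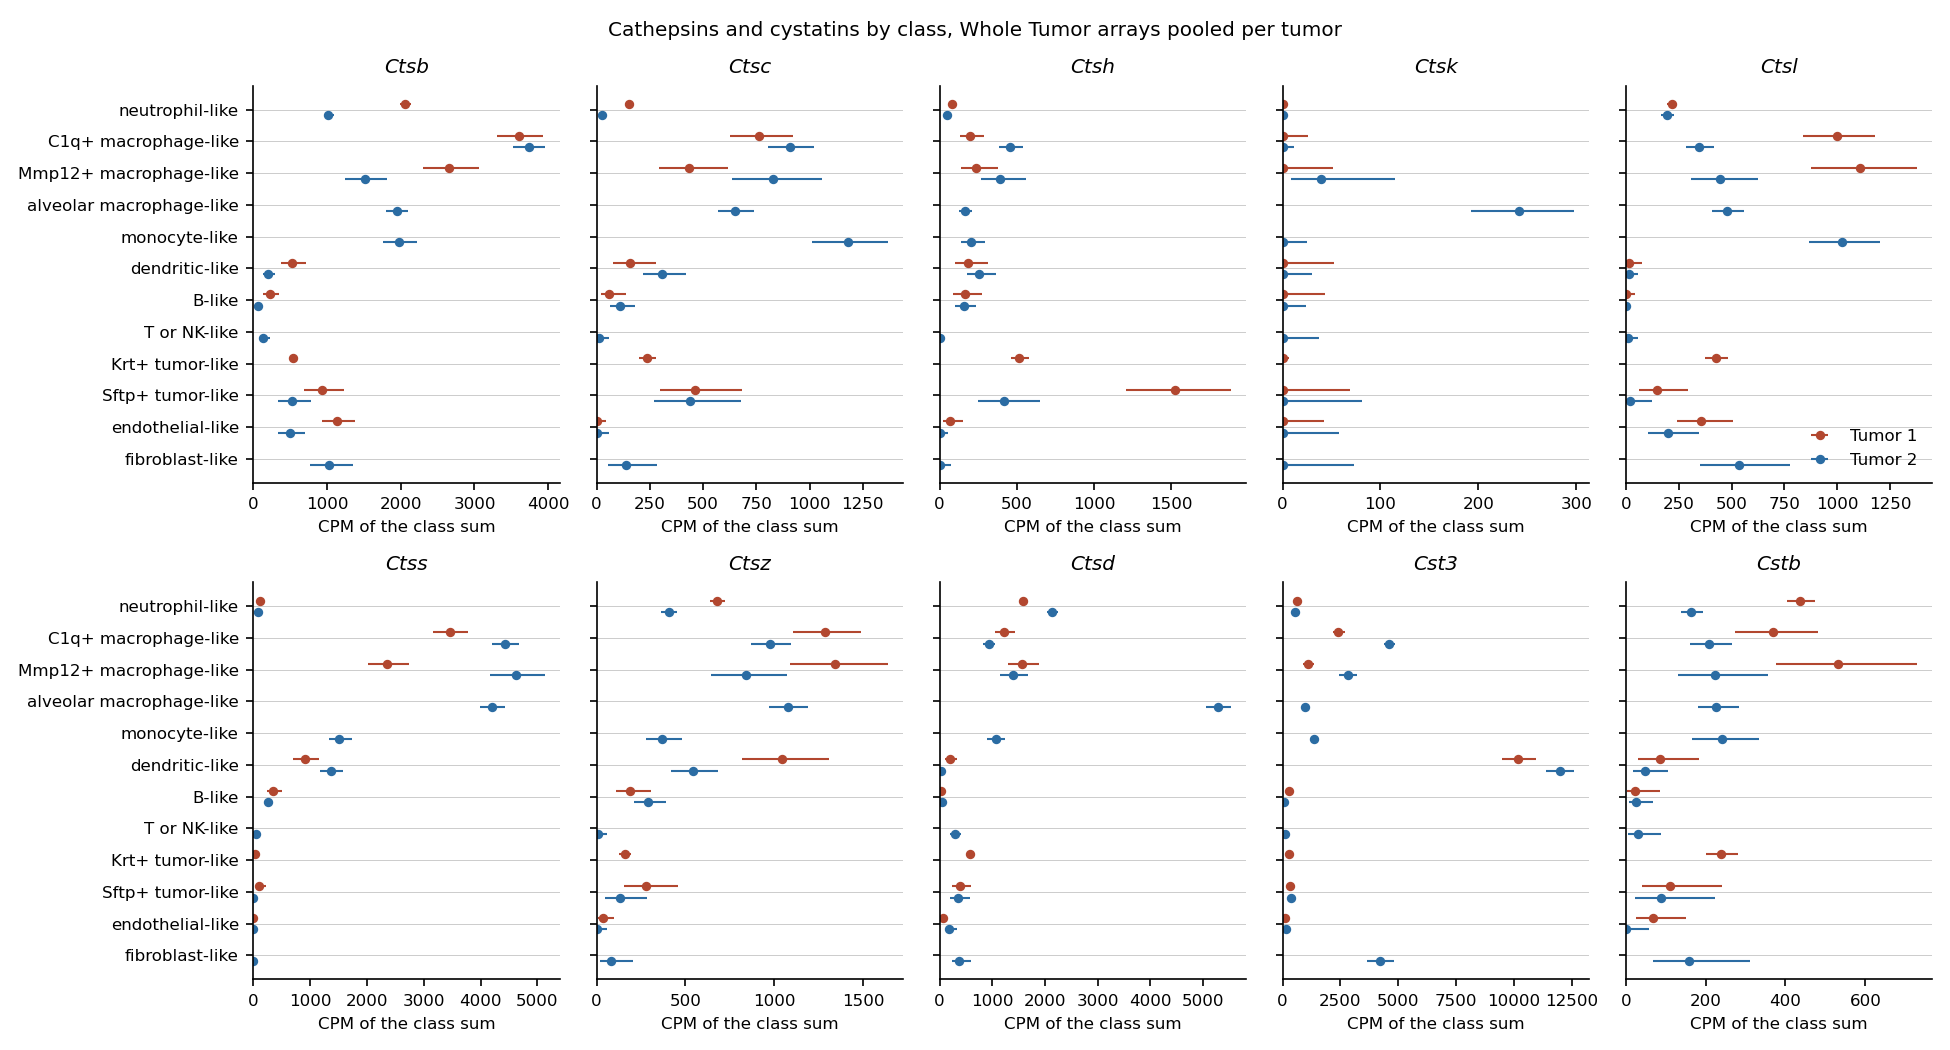
CPM of each member in the summed UMIs of 12 classes with at least 10 barcodes in a tumor, Whole Tumor arrays pooled per tumor, with exact Poisson intervals at 95% as bars. Cst3 peaks in dendritic-like sums (10199 and 11993 CPM), Ctss in macrophage-like sums, Ctsh in tumor-like sums of Tumor 1 and Ctsk in alveolar macrophage-like sums of Tumor 2 (241 CPM).

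Small classes held large shares of single members. In the Whole Tumor arrays of Tumor 1, C1q+ barcodes held 3.47% of all UMIs but 24.5% of Ctss UMIs. Dendritic-like barcodes held 1.74% of all UMIs and 22.7% of Cst3 UMIs, and Krt+ tumor-like barcodes 14.3% of all and 37.6% of Ctsh UMIs. In Tumor 2, alveolar macrophage-like barcodes held 85.9% of Ctsk and 39.0% of Ctsd UMIs.

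Whether C1q+ macrophage-like and neutrophil-like cells of the same array differed was tested in the 4 Whole Tumor arrays with at least 10 barcodes of both (Tumor 1 array 2 and the 3 arrays of Tumor 2), with library as a block. All tests are edgeR's quasi-likelihood test on summed counts with Benjamini-Hochberg adjustment over all genes tested, called at an adjusted p under 0.05. Values in the tested comparisons are CPM scaled by trimmed-mean (TMM) factors. Remarks that values overlap or not, or lie above or below arrays, describe the printed values only. The matching share of all genes is not given. Of 2072 genes 40.2% were called (21.0% higher and 19.2% lower), and 6 of the 9 members tested were higher in C1q+ sums and none lower. The members' median log2 change was 1.78 against -0.01 over all genes. The study had already named Ctsh, Ctsc and Ctss among the genes elevated in its C1q+ Macrophages. Its cells are those used here, so the count of members is not independent of that report.

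Ctss held 4028, 6196, 4897 and 5311 CPM in C1q+ sums of these arrays, in the order given, and 74.8, 155, 50.6 and 83.7 in neutrophil-like sums. Cst3 held 3244, 6711, 5912 and 5228 against 607, 384, 253 and 911. Ctsc held 867, 571, 836 and 1478 against 158, 43.3, 25.3 and 27.9. Every C1q+ value exceeded every neutrophil-like value for the 3 genes. The log2 change was 5.85 (SE 0.42, adjusted p = 1.11e-06) for Ctss, 3.36 (SE 0.45, adjusted p = 0.000106) for Cst3 and 4.07 (SE 0.57, adjusted p = 0.000127) for Ctsc. The Ctsc value depended on the arrays, at 5.03 without Tumor 1 array 2 and 3.41 without Tumor 2 array 3. Ctsh rose by 2.96 (SE 0.41), Ctsb by 1.78 (SE 0.35) and Ctsz by 1.29 (SE 0.34, adjusted p = 0.0101), and the call for Ctsz was lost without Tumor 2 array 1, 2 or 3 (adjusted p = 0.0583, 0.109 and 0.0721, of a range from 2.75e-05 to 0.294 over its alternatives).

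Ctsd was the exception in direction. It held 1438, 1573, 1165 and 946 CPM in C1q+ sums and 1601, 2890, 2062 and 2779 in neutrophil-like sums, a log2 change of -0.85 (SE 0.35) that missed the threshold (adjusted p = 0.0728) and was called as lower in 6 of 15 alternatives, among them that without Tumor 1 array 2 (-1.11, adjusted p = 5.53e-05 of a range to 0.337). Ctsl (1.15, adjusted p = 0.082) and Cstb (0.19, adjusted p = 0.691) were not called. The C1q+ sum of Tumor 1 array 2 held 14 barcodes, and its Ctsl value of 1283 CPM lay above the 265 to 539 of those arrays.

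**Figure D2:**
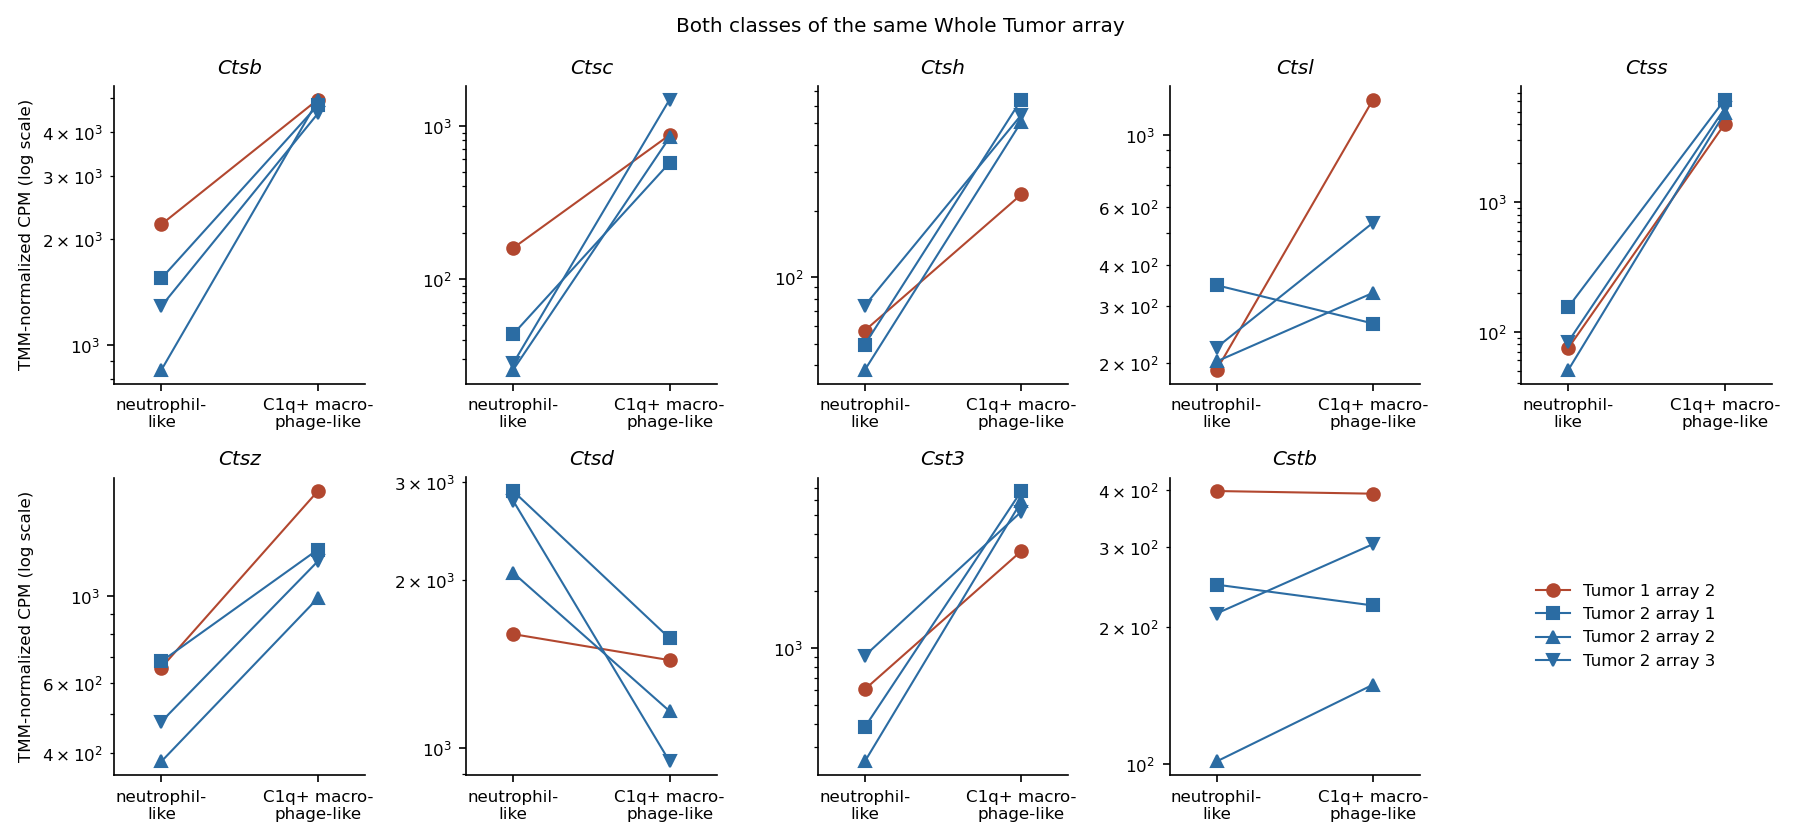
TMM-normalized CPM (log scale) of 9 members in neutrophil-like and C1q+ macrophage-like sums, with a line joining the sums of each of the 4 Whole Tumor arrays. All lines climb for Ctss, Cst3, Ctsc, Ctsh, Ctsb and Ctsz, and all fall for Ctsd.

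The next comparisons were added after the numbers of barcodes were seen. They share sums with the comparison above, so their values stand side by side and are not independent. Krt+ tumor-like against neutrophil-like sums of the 3 arrays of Tumor 1 gave 59.6% of 4883 genes called (29.6% higher and 30.0% lower), with 3 of 9 members higher and 5 lower (median -0.86 against -0.06). Ctsh held 585, 732 and 648 CPM in Krt+ sums and 78.7, 56.5 and 129 in neutrophil-like sums, with no overlap and a log2 change of 2.98 (SE 0.31, adjusted p = 3.33e-18). Ctsl (1.33, SE 0.28) and Ctsc (1.136, SE 0.29) were also higher. Ctss fell most of the members, with 47.6, 15.9 and 8.42 CPM in Krt+ sums against 192, 73.7 and 104 (log2 change -2.34, SE 0.48). Ctsz (-1.65), Ctsb (-1.52), Ctsd (-1.13) and Cst3 (-0.86) fell too, and the call for Cst3 was lost without Tumor 1 array 3 (adjusted p = 0.0885, the highest of its alternatives, from 0.000137).

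Alveolar macrophage-like against C1q+ sums of the 3 arrays of Tumor 2 gave 38.8% of 1432 genes called (19.6% higher and 19.2% lower), and of 9 members 1 was higher and 3 lower (median -0.13 against 0.04). Ctsk is left out of this count, since it held no UMI in the C1q+ sums and entered the test through the other class alone. Ctsd held 6777, 8732 and 6428 CPM in alveolar macrophage-like sums against 1714, 1225 and 1017 in C1q+ sums (log2 change 2.48, SE 0.28, adjusted p = 4.76e-05). Cst3 ran the other way, with 825, 1535 and 1397 against 7312, 6218 and 5618 (-2.37, SE 0.30, adjusted p = 0.000118). Neither pair of groups overlapped. Ctsh fell by 1.56 and Ctsb by 1.02 on the log2 scale, and the call for Ctsb was lost without Tumor 2 array 3 (adjusted p = 0.0776, the highest of its alternatives, from 0.000412). Ctss, with 4999, 5289 and 5777 against 6751, 5149.9 and 5708, overlapped and was not called (-0.13, SE 0.24, adjusted p = 0.715).

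Ctsk, the collagen-degrading cathepsin of osteoclasts, was found in 53 of the 3894 barcodes kept. In Tumor 2 it was in 45 barcodes with 501 UMIs, 36 of them alveolar macrophage-like (109 UMIs, at most 11 in a barcode). In Tumor 1 it was in 8 barcodes with 12 UMIs, none alveolar macrophage-like. Alveolar macrophage-like sums of the Tumor 2 arrays held 215, 340 and 219 CPM without TMM scaling and C1q+ sums none. The pooled level of 241 CPM was at least 24.99-fold higher than C1q+ sums and at least 68.6-fold higher than neutrophil-like sums of Tumor 2, with 3 UMIs over each group as the floor. A share of 42.7% of alveolar macrophage-like barcodes held a Ctsk UMI (9.46% after thinning) and none of 900 neutrophil-like barcodes did.

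In the border library of Tumor 2, 368 of 402 Ctsk UMIs lay in 1 ungated barcode with 12712 UMIs and 3071 genes. That barcode also held 274 UMIs of Acp5 (tartrate-resistant acid phosphatase) and 195 of Mmp9, 11 of Dcstamp, 3 of Ptprc and none of C1qa, C1qb or Marco. It reached no more than 2 markers of any list. The Ctsk level of the library was 275 CPM with this barcode and 23.5 CPM (16.2 to 32.8) without it, against 40.5 ± 18.1 CPM (SD, n = 3) in the Whole Tumor arrays.

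**Figure D3:**
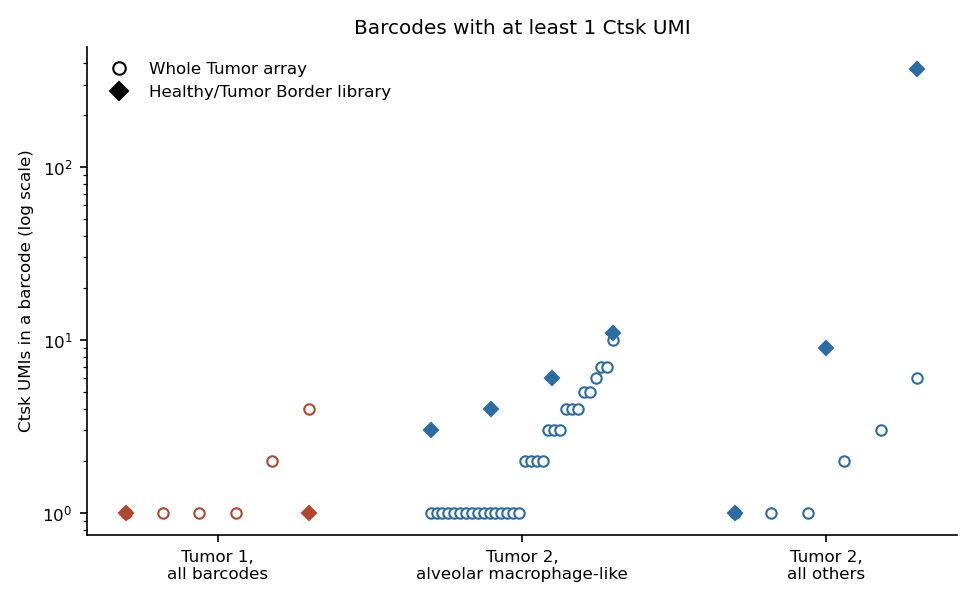
Ctsk UMIs (log scale) in each barcode with at least 1, by tumor and class, with open circles for Whole Tumor arrays and filled diamonds for border libraries. The 36 alveolar macrophage-like barcodes of Tumor 2 hold at most 11 UMIs, and 1 ungated border barcode holds 368.

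In neutrophil-like cells of Tumor 1, the border library was higher than the Whole Tumor arrays for 4 members and lower for 1. The border is 1 library, so in every border test the spread is estimated from the Whole Tumor arrays and that between border samples is not measured. The test gave 482 genes higher and 108 lower of 5974, or 9.88% called (8.07% higher and 1.81% lower), and 9 members were tested with a median log2 change of 0.89 against -0.08 over all genes. Ctsb held 3811 CPM at the border and 1417, 1739 and 1353 in arrays 1 to 3, a log2 change of 1.34 (SE 0.25, adjusted p = 0.000211). Ctsd held 2541 against 1249, 1270 and 1041 (1.10, SE 0.24, adjusted p = 0.00176). Both border values were above every array.

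Ctsz held 1049 CPM at the border and 565, 521 and 476 in the arrays (1.01, SE 0.26, adjusted p = 0.00633). Cstb held 901 against 379, 315 and 338 (1.39, SE 0.26, adjusted p = 0.000232). Cst3 held 186 against 478, 481 and 514 (-1.40, SE 0.38, adjusted p = 0.0126), so the 2 inhibitors moved in opposite directions in the same sums. Ctsl held 322 against 270, 151 and 111 and missed the threshold (0.89, adjusted p = 0.0746), except without array 1, where it was 1.27 with an adjusted p of 0.00369 (range to 0.473). Ctsc (113 CPM at the border), Ctsh (41.7) and Ctss (68.1) were not called.

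TMM factors were 0.91 at the border and 1.35 to 1.37 in the arrays, and scaling by library totals alone moved the median of all genes from -0.08 to -0.65. By totals alone 2 members were called higher and 2 lower. With barcodes of at least 500 genes only Cstb stayed called. The border sum drew 56.7% of its barcodes from the cluster led by Il23a and Tnf and 7.22% from that led by Adamdec1, against 22.5% and 48.8% in the arrays. Over all libraries, without TMM scaling, the first cluster held 3490 CPM of Ctsb and 195 of Cst3 and the second 1233 and 868. The dendritic-like list, whose class leads Cst3, summed to 2.47 CPM at the border and 3.30 to 8.65 in the arrays. The part of the clusters in the changes was not tested.

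In neutrophil-like cells of Tumor 2, 7.53% of the 5974 genes were called (2.75% higher and 4.79% lower) and 2 members were higher at the border and none lower (median 0.01 against 0.03 over all genes). Ctsc held 142 CPM at the border and 46.4, 26.0 and 31.6 in the arrays (2.02, SE 0.49, adjusted p = 0.00708). Cstb held 476 against 265, 104 and 243 (1.11, SE 0.33, adjusted p = 0.0296), and its call was lost with barcodes of at least 500 genes or with no filter on low counts (adjusted p from 0.000779 to 0.261 over its alternatives). Ctsb held 1137 against 1649, 872 and 1458 and Ctsd 2083 against 3092, 2123 and 3152, neither called (adjusted p = 0.669 and 0.366). Ctss held 219 against 166, 52.1 and 94.9 (1.01, adjusted p = 0.194). Cst3 in array 3, at 1034, was well above arrays 1 and 2 at 411 and 260.

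The border sum of Tumor 2 drew on other clusters than its arrays, with 20.7% against 78.7% of barcodes in the cluster led by Retnlg and Ngp. That cluster held 15.3 CPM of Ctsc over all libraries. The dendritic-like list summed to 171 CPM at the border and 4.82 to 21.2 in the arrays, and the C1q+ list to 74.9 and 10.6 to 28.9 (3 of 8 markers at 0 at the border and 3 to 7 in the arrays). Their part in the Ctsc value was not tested.

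**Figure D4:**
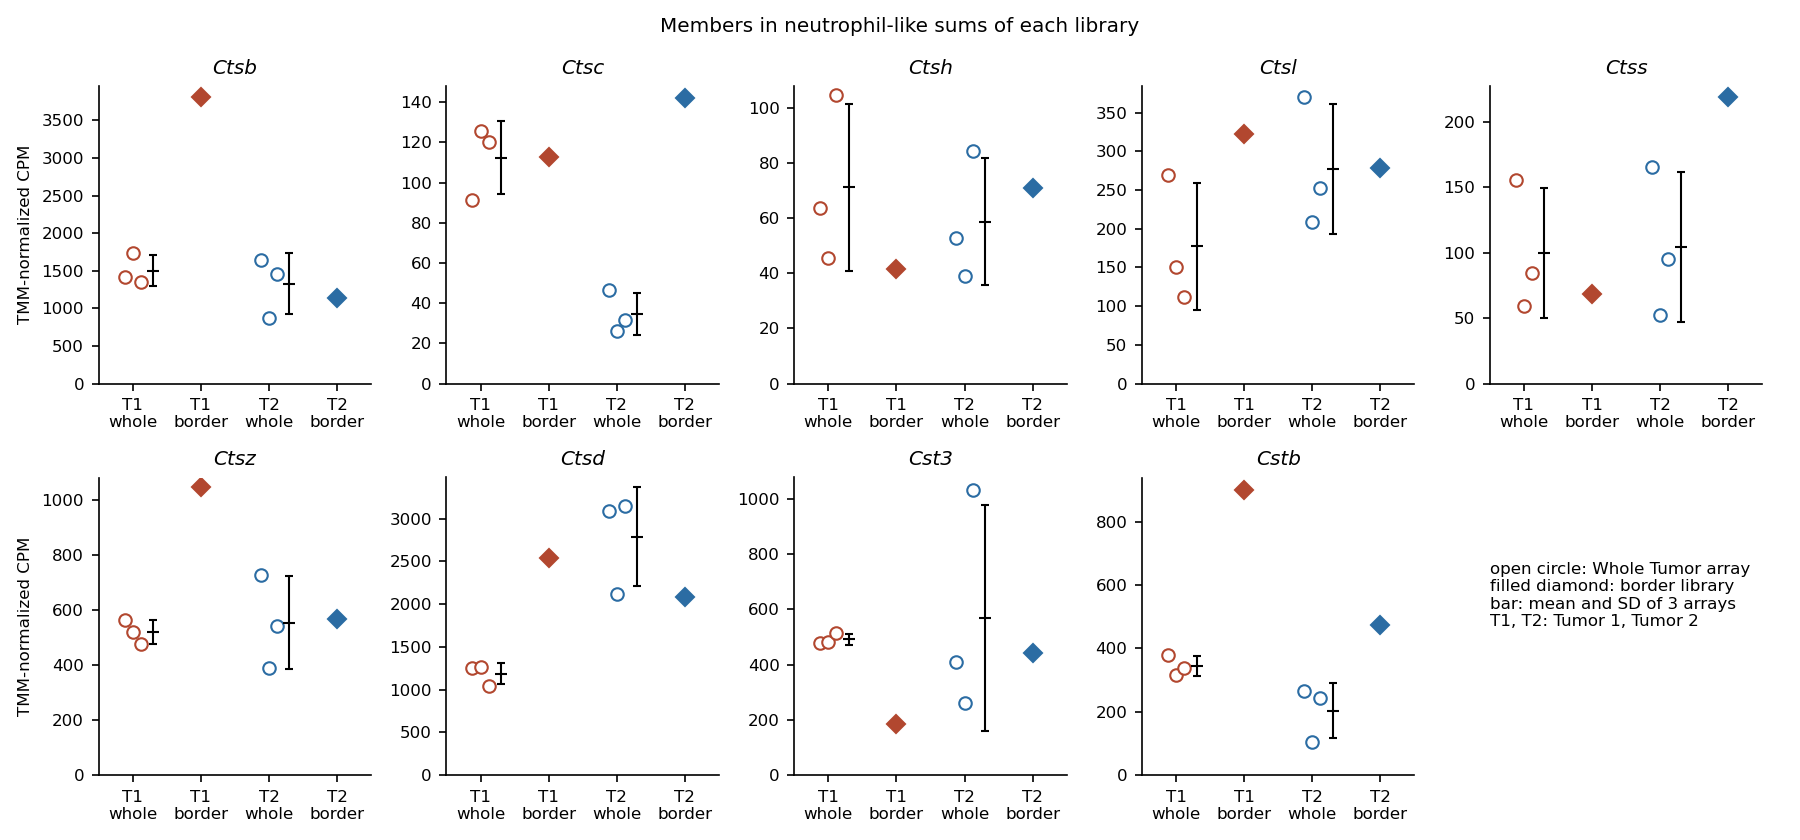
TMM-normalized CPM of the members in the neutrophil-like sum of each library, with the 3 Whole Tumor arrays and the border library of each tumor as points. The Tumor 1 border lies above its arrays for Ctsb, Ctsd, Ctsl, Ctsz and Cstb and below them for Cst3 and Ctsh, and the Tumor 2 border lies above its arrays for Ctsc, Ctss and Cstb and below them for Ctsd. Each border is 1 library, and the share of all genes outside the arrays is not given.

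The border change differed between the tumors for 3 of the 9 members by a test of the difference, in which each border is again 1 library and the spread comes from the arrays alone (11.2% of 5974 genes called, 7.95% higher and 3.25% lower in Tumor 1). Tumor 1 minus Tumor 2 was 1.59 for Ctsb (SE 0.40, adjusted p = 0.00589), 1.53 for Ctsd (SE 0.37, adjusted p = 0.00447) and -2.03 for Ctsc (SE 0.60, adjusted p = 0.022). For Ctsc the call was lost without Tumor 2 array 3 (adjusted p = 0.0665, range 0.000453 to 0.118). By library totals alone the median of all genes moved from -0.09 to -1.11 and neither Ctsb nor Ctsd was called. With barcodes of at least 500 genes none of the 3 members was called. For Cstb, higher at both borders, the difference was 0.29 (SE 0.44, adjusted p = 0.732), and for Ctsz it was 1.00 (adjusted p = 0.105).

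In C1q+ macrophage-like cells of Tumor 2, 0.905% of 2653 genes were called (0.452% in each direction) and none of the 9 members tested, of which 2 had an unadjusted p under 0.05 (DESeq2 gave Ctsd an adjusted p of 0.956). Ctsd held 2768 CPM at the border and 1474, 1096 and 913 in the arrays (1.26, SE 0.37, adjusted p = 0.0903), above every array, and was called without array 1 (1.47, adjusted p = 0.0277). Cst3 held 3365 against 6287, 5565 and 5045 (-0.74, SE 0.35, adjusted p = 0.486), below every array. Of the barcodes in the border sum, 38.8% lay in the cluster led by Folr2, Cbr2 and Ccl8, while 94.9% of those of the arrays lay in another. The part of these barcodes was not tested. Tumor 1 could not be tested, with 1 C1q+ barcode at its border.

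**Figure D5:**
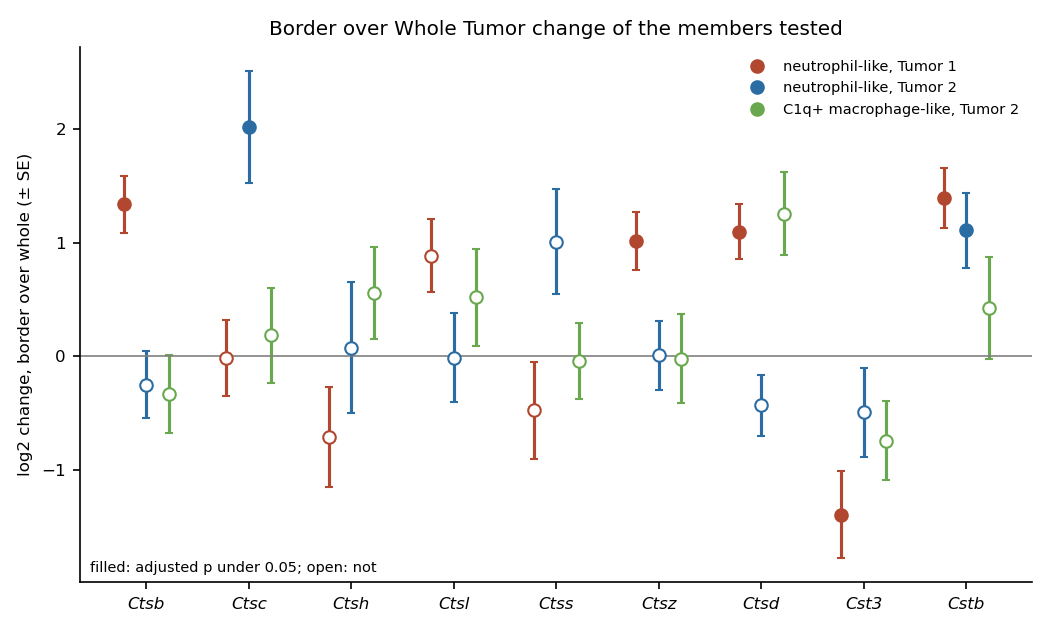
Log2 change of the border over the Whole Tumor arrays with its SE for each member tested, in neutrophil-like cells of Tumor 1 and Tumor 2 and C1q+ macrophage-like cells of Tumor 2, filled where the adjusted p is under 0.05. Ctsb, Ctsd, Ctsz and Cstb are filled above 0 and Cst3 below 0 in Tumor 1, Ctsc and Cstb above 0 in neutrophil-like cells of Tumor 2, and no C1q+ point is filled.

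Between the Whole Tumor arrays of the 2 tumors, 45.2% of 5974 genes were called in neutrophil-like sums (23.0% higher and 22.2% lower in Tumor 2), and 2 members were higher and 2 lower in Tumor 2 (median 0.12 against -0.25 over all genes, which moved to -1.14 by library totals). These arrays are also the baseline of the border changes. The sums drew on different clusters, with 78.7% of Tumor 2 barcodes in the cluster led by Retnlg and Ngp and 48.8% of Tumor 1 barcodes in that led by Adamdec1. Over all libraries, without TMM scaling, these clusters held 2252 and 840 CPM of Ctsd and 15.3 and 194 of Ctsc, and their part in the values was not tested. Ctsd stood at 2789 ± 578 CPM (SD, n = 3) in Tumor 2 and 1187 ± 126 in Tumor 1 (1.24, SE 0.19, adjusted p = 8.32e-07), and no array overlapped. Ctsc stood at 34.7 ± 10.5 and 112 ± 18.3 (-1.70, SE 0.36, adjusted p = 0.000177), also without overlap. Ctsl was higher (277 ± 83.9 and 177 ± 82.3, 0.69, adjusted p = 0.0346) except by library totals, where it was -0.18, and its arrays overlapped. Cstb was lower (204 ± 87.1 and 344 ± 32.3, -0.64, adjusted p = 0.0276). Leaving out Tumor 1 array 2 or 3 or Tumor 2 array 1 ended the call for Ctsl (0.56, 0.45 and 0.47), and leaving out Tumor 1 array 1 or Tumor 2 array 2 that for Cstb (-0.57 and -0.43). The neutrophil-like list summed to 27543 to 30769 CPM in Tumor 2 arrays and 9670 to 10958 in Tumor 1 arrays, and its part in these values was not tested.

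Summed over all barcodes kept, where the number of cells of a type and the RNA per cell cannot be told apart and no test was run, both borders lay above their arrays for Ctsb, Ctsz and Cstb. Ctsb stood at 3106 CPM against 1735 ± 295 (SD, n = 3) in Tumor 1 and at 1856 against 1304 ± 58.9 in Tumor 2. Cstb stood at 786 against 346 ± 24.9 and at 261 against 137 ± 14.2. Ctsc, Ctsh, Ctsl and Ctss lay below every array in Tumor 1 and above every array in Tumor 2, among them Ctss at 56.1 against 487 ± 11.3 and at 2426 against 1554 ± 85.7, and Ctsh at 71.5 against 194 ± 8.68 and at 409.7 against 181 ± 15.1. Cst3 was below its arrays in Tumor 1 (138 against 772 ± 53.9) and within their range in Tumor 2 (1916 against 1823 ± 83.4). Each border is 1 library, and the share of all genes that lie outside their arrays is not given. These positions are therefore not read as a result about the members. Neutrophil-like barcodes held 65.9% of the UMIs of the Tumor 1 border and C1q+ barcodes 43.2% of those of the Tumor 2 border, where they also held 79.2% of Ctss and 73.2% of Ctsb UMIs.

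Other genes of the lysosome were taken from 3 lists: 12 further lysosomal proteases, 9 further cystatin family inhibitors and 22 other lysosomal genes. In neutrophil-like cells at the Tumor 1 border, where 9.88% of all genes were called, 1 of 5 tested proteases rose (Lgmn, legumain, 1.295), 2 of 3 inhibitors rose (the stefins Stfa2l1, 2.96, and Gm5483, 1.00), and of 21 other genes Psap, the saposin precursor, rose (1.142) and Man2b1, the lysosomal mannosidase, fell (-1.36). The stefin genes are near-identical copies, so their counts are uncertain. At the Tumor 2 border, with 7.53% of all genes called, the protease Tpp1 rose (1.90), and Stfa2l1 (-2.03) and the lysosomal membrane proteins Cd68 (-1.32) and Lamp2 (-1.13) fell. The tumors differed in the change of Stfa2l1 (4.99), Gm5483 (1.63), Cd68 (2.24) and Lamp2 (1.43). In C1q+ cells none of 5 proteases and 17 other genes was called, and no inhibitor was tested.

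Between classes and between tumors more of all genes were called, and the lists are read against that. In C1q+ against neutrophil-like sums, with 40.2% of all genes called, 3 of 4 proteases rose, among them Lgmn (5.22) and Scpep1 (4.66), and 12 of 17 other genes rose and 2 fell (median 1.68), with Npc2 (3.67) up and Igf2r, the mannose 6-phosphate receptor that carries cathepsins to lysosomes, down (-5.08). In Krt+ sums, with 59.6% of all genes called, 15 of 21 other genes fell and 1 rose (median -1.46), and 4 of 6 proteases fell and 1 rose, the aspartic protease Ctse (6.51). In alveolar macrophage-like against C1q+ sums, with 38.8% of all genes called, 2 of 4 proteases fell, Lgmn (-2.24) and Scpep1 (-1.14), and of 16 other genes 2 fell, among them Cd63 (-2.34), and Psap rose (0.70). Between the tumors, with 45.2% of all genes called, 9 of 21 other genes were lower in Tumor 2 neutrophil-like sums, among them Mcoln1 (-2.42), and 4 higher (median -0.66). Of 5 proteases 3 were lower, among them Dpp7 (-2.15) and Tpp1 (-2.11), and 1 higher, and all 3 inhibitors were higher (Stfa2l1, 5.002, and BC100530, 4.45, among them). The inhibitor Gm5483 held no UMI in C1q+ sums, against 236 CPM in the neutrophil-like sums of the same arrays.

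Across the 15 sums of a class and tumor with at least 20 barcodes, which share libraries and depth, the genes with the most similar pattern were Cybb (Pearson r = 0.941) and Pld4 (0.924) for Ctss, Rnf130 (0.929) and Plin2 (0.912) for Ctsb, and Plin2 and Por (0.911 each) for Ctsd. Ctsl was most like Plod3 (0.930) and Lamp2 (0.907), Ctsz like Hexa (0.927) and Prkcd (0.909), and Ctsc like Eps8 (0.918) and Aldh9a1 (0.893). Ctsh was closest to Eps8 (0.858) and Tkt (0.838), Cst3 to Rap2a (0.932) and Gfpt1 (0.887), and Cstb to Prdx5 (0.941) and Atp6v1e1 (0.931). Ctsk was closest to Atp6v0d2 (0.837), itself a marker of the alveolar gate, and Scgb1a1 (0.834). Among the members, Ctsb and Ctsl (0.905), Ctsc and Ctsh (0.884) and Ctsb and Ctsd (0.859) were most alike, and Ctsk was unlike Cst3 (0.113).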

How the data were processed

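The authors deposited 1 table of raw UMI counts per library (Seq-Well, sequenced reads demultiplexed with bcl2fastq 2.17.1.14 and aligned with STAR 2.5.2b to mm10, per the submitters' processing notes, then counted with the Drop-seq pipeline). The annotation release and strand setting are not given in the sources used here. In all 8 tables the cell names carry the number of the other tumor than GEO's labels, and the labels were used. Each UMI is 1 captured molecule, so low sums are imprecise.

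Barcodes with at least 200 genes were kept and gated by 3 or more of 8 markers. Doublets were called with Scrublet (57 barcodes, 1.46%) and kept, with their removal as an alternative. UMIs were summed per library and class (10 or more barcodes) and tested with edgeR 4.0.16 (R 4.3.3; TMM, filterByExpr, quasi-likelihood test, Benjamini-Hochberg adjustment, threshold 0.05). The study tested single cells as replicates. Clustering used scanpy 1.11.5 with Python 3.11.15 and left the members out. Intervals came from scipy 1.17.1, at 95%. The tests were checked on simulated data.

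Named were all 10 members, up to 6 called genes of the 3 lists with the largest change, and the 2 genes most alike each member (log2(CPM + 10), at least 200 UMIs). Some genes and 1 gated class are not reported here. The members and lists were chosen with earlier results of these data known. The study had also reported Cstb among genes that differ between border and Whole Tumor in its Monocyte or Macrophage cells of both tumors. Alternatives were upper quartile scaling, library totals only, DESeq2 1.42.0, no filter, gates of 2 or 4 markers, at least 500 genes, all barcodes, no doublets, classes from clusters, a replicate block and leaving out each array.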

Additional observations from a re-analysis of the deposited data

Results flagged for a closer look

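In neutrophil-like cells the change from the Whole Tumor arrays to the border was tested for a difference between the tumors, and 3 members differed. Tumor 1 minus Tumor 2 was 1.59 (log2) for Ctsb, 1.53 for Ctsd and -2.03 for Ctsc by edgeR's quasi-likelihood test. None of the 3 was called with barcodes of at least 500 genes, and by library totals alone neither Ctsb nor Ctsd was. Ctsb rose by 1.34 in Tumor 1 and stood at -0.25 in Tumor 2 (adjusted p = 0.669), and Ctsc rose by 2.02 in Tumor 2 and stood at -0.02 in Tumor 1 (adjusted p = 0.985). Each border is 1 library of 1 mouse, so the spread comes from the arrays alone and tumor, mouse and library cannot be told apart.

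Barcodes that no gate took, which enter none of the class comparisons, held 1582 CPM of Ctsk in the border library of Tumor 2. The signal lay almost wholly in the 1 barcode described above, with 368 of 402 Ctsk UMIs. A single barcode has no replicate.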

How the results depend on the processing

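Over 522 alternative values of 37 member results, 473 kept direction and side of the threshold, 35 lost the call, 13 gained one and 1 reversed. Of 32 called results 19 stayed called throughout, among them Cstb in Tumor 1 and Ctsc in Tumor 2 at the border. The reversal was Ctsl between tumors by library totals only (-0.18). Members called higher and lower were as follows. At the Tumor 1 border, 4 and 1 became 2 and 2 by library totals and 1 and 0 with at least 500 genes, which leaves fewer barcodes, and were 4 to 5 and 1 without each array. At the Tumor 2 border, 2 higher became 1 with no filter or at least 500 genes. For the difference between tumors, 2 and 1 became 0 and 3 by library totals and 0 and 0 with at least 500 genes, and the lower count became 0 with no filter and 2 with 4 of 8 markers; without an array they were 2 to 3 and 1 to 2. In C1q+ cells at the Tumor 2 border, 0 higher became 1 by upper quartile scaling and 0 to 1 without an array. Between tumors, 2 and 2 became 1 and 6 by library totals and 1 and 1 with no filter or at least 500 genes, the higher count became 1 by upper quartile scaling, DESeq2 or 2 of 8 markers, and the lower 1 with 4 of 8 markers; without an array they were 1 to 3 and 1 to 2. In C1q+ against neutrophil-like cells, 0 lower became 1 by library totals, no filter, 2 of 8 markers, classes from clusters or tumor as a term with no replicate block, and 0 to 1 without an array, with 5 to 6 higher. Of 19 leading classes, 12 stayed with classes from clusters and 12 to 19 without an array, the others changing or holding too few barcodes. The cause of each change was not tested. The array numbers do not pair the samples, since same-numbered arrays correlated at 0.012, 0.004 and -0.03 and 1 of 6 correlated best with its own number; with the replicate block the comparison between tumors kept 2 and 2. A planned comparison of classes could not be run, with both in 1 array only. Where a fit left 1 array in a group, it was assumed to vary like the others.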
